A study of Mus musculus with 36 samples.

Results

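The genotype by Treg interaction in the HP1a line asks whether conventional CD4+ T cells (Tconv) without HP1a respond to regulatory T cells (Treg) as their wild-type (WT) counterparts do. It is a difference of differences. The change between Tconv transferred with Treg and Tconv transferred alone was taken in HP1a KO cells and in HP1a WT cells, and the second change was subtracted from the first. A positive log2 value therefore means that the Treg-associated change was more positive, or less negative, in KO cells. It rests on 4 groups of 3 libraries, 12 of the 36 libraries of the series. WT and KO cells came from sex-matched young adult littermates (Hp1a+/+ and Hp1a-/-) with a mixed background of 129/Sv and C57BL/6. The floxed Hp1a allele of this line had been excised with CMV-cre and was then transmitted through the germ line, so the donor lacks HP1a in the whole animal and not only in T cells. Naive CD4 T cells of either genotype were injected into lethally irradiated B6 hosts together with a mixture of B6 and semi-allogeneic B6D2F1 bone marrow, either alone (HP1a WT Tconv and HP1a KO Tconv) or with ex vivo expanded WT Treg from Foxp3-Thy1.1 mice (HP1a WT Tconv with Treg and HP1a KO Tconv with Treg). The Treg were WT in both arms. After 3 weeks, donor CD4+ T cells that were negative for Thy1.1, which removes the injected Treg, and positive for the receptor chain Vβ6 were sorted from the spleen, and RNA was amplified with the SMART-seq V4 PLUS kit. The labels do not state whether replicates came from separate hosts or donors, so p-values measure the spread between these libraries.

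HP1a, encoded by Cbx5, is a non-histone chromosomal protein that binds methylated lysine on histone H3 and takes part in heterochromatin and gene silencing. Treg limit the activation and effector function of Tconv, and Tconv exposed to persistent antigen or to suppression can express inhibitory receptors such as PD-1 and LAG-3. T cells that carry Vβ6 recognise superantigens of the DBA/2 parent of B6D2F1 mice.

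The 12 libraries held 37029500 to 62700100 estimated counts. Levels are counts-per-million (CPM) after TMM normalisation and are listed in the order of replicates R1, R2 and R3. The CD4 T cell identity genes were detected in each library, and Trbv19, which encodes Vβ6, took 47.1% to 91.7% of the Trbv counts. This share was 77.2% to 91.7% in HP1a WT Tconv and 61.3% to 71.9% in HP1a WT Tconv with Treg, with no overlap. It was 65.1% to 79.1% in HP1a KO Tconv and 47.1% to 73.2% in HP1a KO Tconv with Treg, which overlapped. The part of this difference in the Treg effects was not tested. HP1a WT Tconv with Treg R3 had the highest mitochondrial share, 3.84% against 1.19% to 2.09% in the others, and the highest share of ribosomal-protein transcripts, 4.34% against 2.45% to 3.05%. Transcripts of other blood cells were uneven, and a bulk measurement cannot tell fewer cells of a type from less RNA per cell. The summed level of the 14 macrophage and monocyte markers was 7.78 to 11 CPM in HP1a WT Tconv, 88.4, 23.8 and 457 CPM in HP1a KO Tconv, 41.0, 39.6 and 65.5 CPM in HP1a WT Tconv with Treg, and 419, 68.6 and 540 CPM in HP1a KO Tconv with Treg. The 14 neutrophil markers summed to 0.191 to 0.299 CPM, 1.93 to 72.3 CPM, 1.57 to 42.8 CPM and 275 to 488 CPM in the same order of groups, and the 10 erythroid markers to 2.12 to 3.59 CPM, 26.9 to 776 CPM, 4.08 to 51.4 CPM and 113 to 711 CPM. The neutrophil precursor genes Elane and Prtn3 were each at 0 in 9 of the 12 libraries. Other members of this list were found in more libraries. Mpo and Camp were at 0 in 5 and Ngp and Ltf in 4, with highest levels of 8.21, 23.2, 102 and 65.3 CPM in that order. HP1a KO Tconv R3 and HP1a KO Tconv with Treg R1 and R3 were the 3 libraries richest in macrophage and erythroid transcripts. Both the interaction and the Treg effect in KO cells are therefore also given without these 3 libraries, an analysis added after the values were seen.

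**Figure D1:**
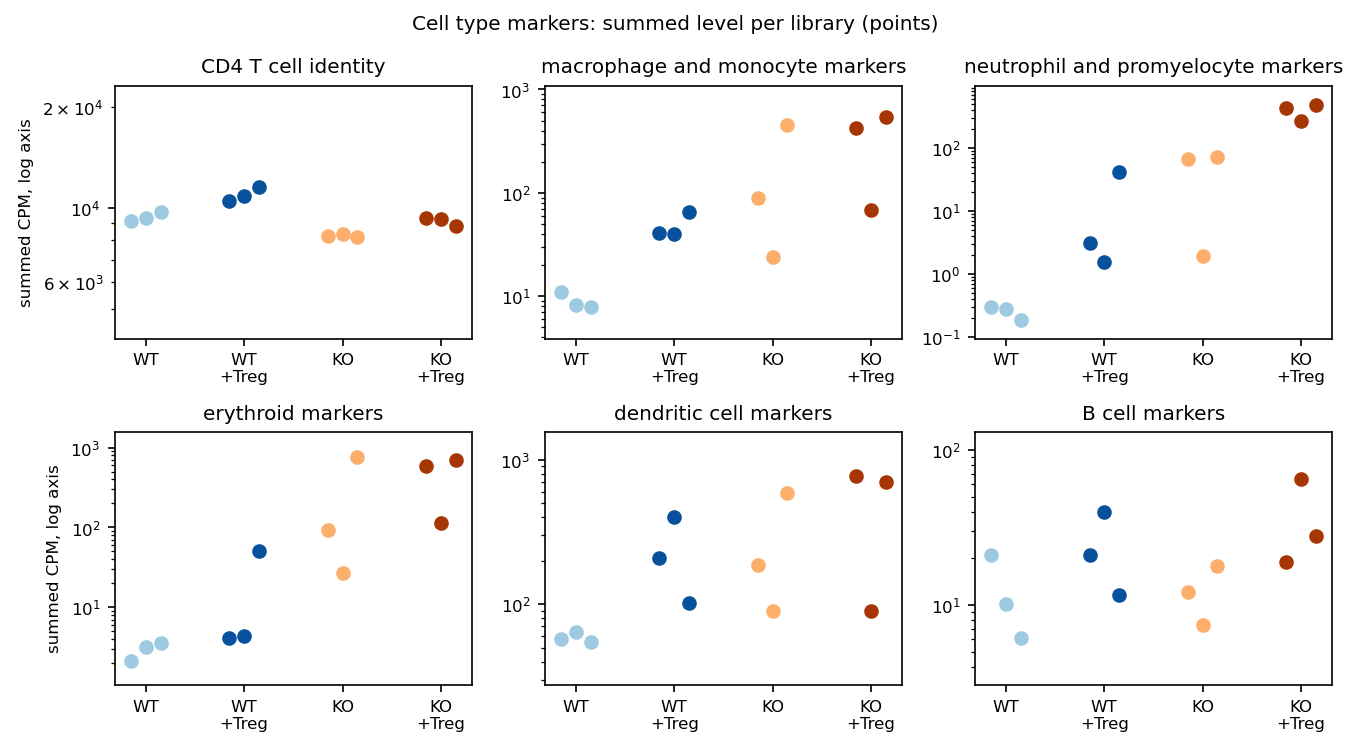
Summed level in CPM (log axis) of the CD4 T cell identity genes and of 5 marker lists of other cell types in each of the 12 libraries, 1 point per library. The macrophage panel runs from 7.78 to 11 CPM in HP1a WT Tconv and up to 540 CPM in HP1a KO Tconv with Treg.

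The targeted gene was examined first. Cbx5 (chromosome 15, 103099505 to 103148419, minus strand, GRCm39) was present at 28.7, 30.4 and 26.3 CPM in HP1a WT Tconv, 16, 16.2 and 14 CPM in HP1a KO Tconv, 47.6, 34.8 and 63.3 CPM in HP1a WT Tconv with Treg, and 15.8, 19.1 and 20 CPM in HP1a KO Tconv with Treg. The KO libraries were all lower than the WT libraries, although transcripts of the gene were still counted in the KO cells. Gene counts do not tell which exons the remaining reads came from. By western blot, the paper found no HP1a protein in naive CD4 T cells of the KO mice. It also found no compensating rise of the other HP1 proteins there. Protein in the sorted Tconv was not measured here. The interaction for Cbx5 was -0.52 ± 0.27 (SE) on the log2 scale with an adjusted p of 0.58 by edgeR's quasi-likelihood test. The genes of the other HP1 proteins gave -0.52 ± 0.26 for Cbx1 (adjusted p = 0.547) and -0.15 ± 0.22 for Cbx3 (adjusted p = 0.87).

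Treg exposure was accompanied by many more called changes in WT cells than in KO cells. With an adjusted p under 0.05 and an absolute log2 value above 1 required for a call, 1303 of 17205 genes (7.57%) were called for the Treg effect in HP1a WT, 735 higher (4.27%) and 568 lower (3.3%) with Treg. In HP1a KO, 47 genes (0.273%) were called, 27 higher (0.157%) and 20 lower (0.116%). DESeq2 called 2036 (10.5%) and 331 (1.82%) genes for these effects, and limma-voom with sample quality weights 1283 (7.46%) and 310 (1.8%). Such unequal counts do not test the difference itself, and the interaction does. It called 24 genes (0.139%), of which 14 were higher (0.0814%) and 10 were lower (0.0581%), and 1675 genes (9.74%) reached an unadjusted p below 0.05. For the interaction DESeq2 called 356 genes (1.84%) and limma-voom 121 (0.703%) on the same libraries. All 24 genes were among the calls of DESeq2 and 18 were among those of limma-voom. With 1 library left out, the edgeR count ran from 9 (without HP1a WT Tconv R3) to 91 (without HP1a WT Tconv with Treg R3). Without Treg, edgeR called 4 genes between the genotypes, all higher in KO (0.0232%). These were Slc15a2, Capn11, the pseudogene Rps7-ps3 and the RIKEN transcript 1700030C10Rik, named for the small number of calls after their values were seen. With Treg, 395 genes were called between KO and WT (2.3%), 224 higher (1.3%) and 171 lower (0.994%) in KO. At an unadjusted p under 0.05, edgeR gave 664 genes without Treg and 3649 with Treg. DESeq2 was not run here for these 2 comparisons. The paper, which used DESeq2 at the same thresholds, reported many more genes higher in KO without Treg than were called here.

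The fitted Treg effect had the same direction in both genotypes in nearly all called genes but was smaller in KO. Of the 24 genes, 23 had effects of the same sign, and in each of these 23 the fitted log2 change was smaller in KO. For the 14 genes with a positive interaction, the median log2 Treg effect was -2.94 in WT and -1.12 in KO. For the 10 with a negative interaction it was 3.23 in WT and 0.95 in KO. A positive interaction thus marked genes that were lower with Treg, less so in KO, and a negative interaction genes that were higher with Treg, again less so in KO. Among the 735 genes called higher with Treg in WT, the median effect was 2.40 in WT and 0.86 in KO, and 675 had the same sign in KO. Among the 568 called lower, the medians were -1.89 and -0.59 and 500 had the same sign. These genes were chosen by their WT effect, which by itself favours a larger WT value. Of the 47 genes chosen by their KO effect instead, 46 had the same sign in WT and 43 had a smaller effect in KO than in WT, with a median absolute log2 effect of 3.36 in WT and 2.13 in KO. Over all genes tested the median interaction was -0.018.

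**Figure D2:**
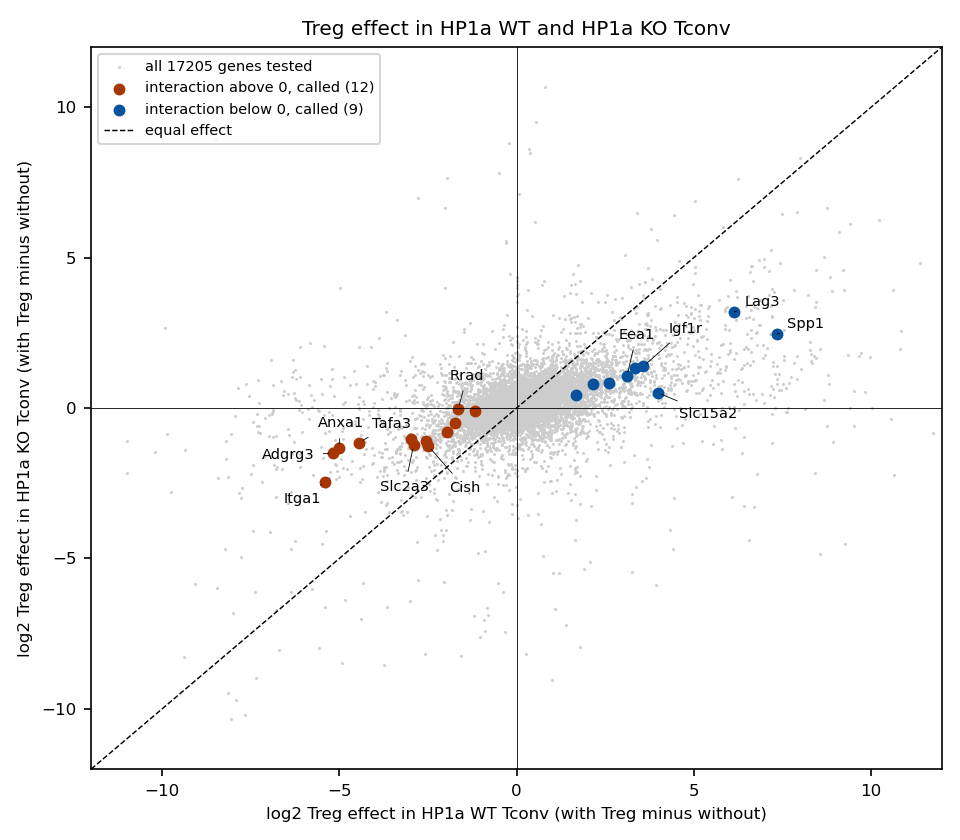
Log2 Treg effect in HP1a KO (y axis) against that in HP1a WT (x axis) for each gene tested, with the genes called for the interaction in colour. Of the 24 called genes, 21 are drawn and 3 with a group at or near 0 are not. The called genes lie between the horizontal axis and the diagonal, where the KO change is the smaller, with Slc15a2, Lag3 and Spp1 to the right and Anxa1, Adgrg3 and Itga1 to the left.

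The 14 genes with a positive interaction had lower fitted levels with Treg in both genotypes, and less so in KO cells. Anxa1, encoding the phospholipid-binding, glucocorticoid-induced annexin A1, had the highest interaction among called genes averaging 5 CPM or more. Its level was 171, 179 and 241 CPM in HP1a WT Tconv, 145, 91.5 and 93.9 CPM in HP1a KO Tconv, 5.09, 8.28 and 4.89 CPM in HP1a WT Tconv with Treg, and 51.2, 32.9 and 46.9 CPM in HP1a KO Tconv with Treg. The 4 groups did not overlap. The Treg effect was -5.02 ± 0.30 in WT and -1.33 ± 0.26 in KO (adjusted p = 0.0576), 26.6% of the WT effect on the log2 scale, and the interaction was 3.68 ± 0.37 (adjusted p = 0.0051). Slc2a3, encoding the glucose transporter GLUT3, was at 235, 212 and 246 CPM in HP1a WT Tconv and 180, 171 and 191 CPM in HP1a KO Tconv. With Treg it was at 32.9, 33.2 and 26.3 CPM in WT and 86.5, 68.7 and 76.4 CPM in KO. It fell in both genotypes, by 2.90 on the log2 scale in WT and by 1.23 in KO, and the interaction was 1.68 ± 0.18 (adjusted p = 0.0051).

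Cish, encoding an SH2 protein that is induced by STAT5 and limits cytokine and antigen receptor signalling, was among the most abundant of the called genes. It was at 368, 478 and 394 CPM in HP1a WT Tconv and 414, 397 and 422 CPM in HP1a KO Tconv, so that the genotypes overlapped without Treg. With Treg it was at 68.6, 79.7 and 72.2 CPM in WT and 174, 169 and 171 CPM in KO, with no overlap. The interaction was 1.23 ± 0.16 (adjusted p = 0.0119). Adhesion genes were also called. Itga1, the alpha subunit of a collagen-binding integrin, was at 66.2, 55.0 and 39.9 CPM in HP1a WT Tconv and 37.7, 33.8 and 37.6 CPM in HP1a KO Tconv. With Treg it was at 1.03, 1.32 and 1.46 CPM in WT and 9.94, 4.13 and 5.80 CPM in KO (interaction 2.95 ± 0.42, adjusted p = 0.0199). L1cam, an adhesion molecule of the immunoglobulin superfamily, ranged from 134 to 173 CPM in the 6 libraries without Treg, from 23.6 to 28.6 CPM in HP1a WT Tconv with Treg and from 65.3 to 74.3 CPM in HP1a KO Tconv with Treg (1.46 ± 0.18, adjusted p = 0.00916).

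Rrad, encoding a Ras-related GTPase, had almost no fitted Treg effect in KO cells. It was at 92.1, 88.7 and 71.3 CPM in HP1a WT Tconv, 80.6, 57.6 and 68.8 CPM in HP1a KO Tconv, 25.0, 28.6 and 27.0 CPM in HP1a WT Tconv with Treg, and 65.9, 71.3 and 65.9 CPM in HP1a KO Tconv with Treg. The KO libraries with and without Treg overlapped, while the WT libraries were well separated. The Treg effect was -1.65 ± 0.14 in WT and -0.027 ± 0.14 in KO (adjusted p = 0.985), and the interaction was 1.62 ± 0.20 (adjusted p = 0.00972). The adhesion G protein-coupled receptor gene Adgrg3 gave 3.67 ± 0.47 (adjusted p = 0.0119), with 20.1 to 26.3 CPM in HP1a WT Tconv, 0.483 to 0.812 CPM in HP1a WT Tconv with Treg and 3.11 to 4.45 CPM in HP1a KO Tconv with Treg. The remaining genes of the naming rule were Tafa3 (3.29 ± 0.44), which encodes a secreted chemokine-like protein, the lysophosphatidylserine receptor gene Gpr34 (1.94 ± 0.32) and the sphingomyelin synthase gene Sgms1 (1.24 ± 0.18). In each of these 3 genes every HP1a KO Tconv with Treg library lay above every HP1a WT Tconv with Treg library, and their adjusted p ran from 0.0143 to 0.0492. The choice of called genes favours such separation, so it is a description and no further support. How many of all genes were separated in this way was not counted.

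Iqgap2, Ifrd1 and Pard3 were called outside the naming rule and are named after their values were seen. Iqgap2, encoding a scaffold protein, gave 1.17 and Ifrd1 gave 1.08, each with an adjusted p of 0.0199. The cell polarity gene Pard3 was at 4.78, 6.63 and 5.45 CPM in HP1a WT Tconv and at 0 in each HP1a WT Tconv with Treg library, whereas HP1a KO Tconv with Treg held 1.2, 1.64 and 0.847 CPM. At a floor of 3 counts per library, Pard3 was at least 82.2-fold lower with Treg in WT.

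Genes with a negative interaction included the secreted protein osteopontin, the inhibitory receptor LAG-3 and a growth factor receptor, all of which were higher with Treg in WT than in KO. Lag3, whose product binds MHC class II, was at 0.879, 1.02 and 0.515 CPM in HP1a WT Tconv and 0.650, 0.628 and 0.705 CPM in HP1a KO Tconv. With Treg it was at 47.6, 55.6 and 69.1 CPM in WT and 6.5, 3.52 and 8.24 CPM in KO. The genotypes overlapped without Treg and were separated with it. Lag3 rose in both, by 6.14 ± 0.37 on the log2 scale in WT and by 3.20 ± 0.33 in KO, and the interaction was -2.95 ± 0.46 (adjusted p = 0.0371). Spp1, encoding osteopontin, was at 1.62, 2.27 and 1.44 CPM in HP1a WT Tconv, 0.891, 0.721 and 0.866 CPM in HP1a KO Tconv, 231, 339 and 306 CPM in HP1a WT Tconv with Treg, and 1.65, 7.85 and 4.25 CPM in HP1a KO Tconv with Treg. HP1a WT Tconv with Treg stood far above the other groups, and the interaction was -4.89 ± 0.64 (adjusted p = 0.0119). Macrophages also express Spp1, and the macrophage marker sum was 39.6 to 65.5 CPM in HP1a WT Tconv with Treg and 68.6 to 540 CPM in HP1a KO Tconv with Treg. Their part in the Spp1 level was not tested.

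Eea1, encoding a tether of early endosomes, was at 23.1 to 30.1 CPM in the 6 libraries without Treg, at 240, 213 and 195 CPM in HP1a WT Tconv with Treg and at 46.5, 72.0 and 59.3 CPM in HP1a KO Tconv with Treg (interaction -2.05 ± 0.21, adjusted p = 0.0051). Igf1r, the receptor of insulin-like growth factor, was at 52.9 to 62.6 CPM in HP1a WT Tconv with Treg and 11.5 to 19.1 CPM in HP1a KO Tconv with Treg, against 3.96 to 6.69 CPM without Treg (-2.19 ± 0.35, adjusted p = 0.0415). The peroxisome division gene Pex11a (-2.02 ± 0.33) and Mmd (-1.78 ± 0.20) were also called, and in both every HP1a WT Tconv with Treg library lay above every HP1a KO Tconv with Treg library. Their choice as called genes favours this separation too.

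Slc15a2, encoding a peptide transporter, was set apart by its level without Treg. It was at 0.0275, 0.0425 and 0.0542 CPM in HP1a WT Tconv and 9.03, 9.95 and 7.42 CPM in HP1a KO Tconv. With Treg it was at 0.495, 1.12 and 0.479 CPM in WT and 15.2, 10.9 and 11.4 CPM in KO. KO cells were thus higher in both conditions, and the interaction of -3.48 ± 0.58 (adjusted p = 0.0492) came with a WT rise from a level near 0. In the HP1g line, WT Tconv held 0.138, 6.44 and 7.44 CPM of Slc15a2, so that its level differed between WT libraries as well. Havcr2, encoding the inhibitory receptor TIM-3, missed the threshold by edgeR and passed it by DESeq2, with 42.3 to 44.9 CPM in HP1a WT Tconv with Treg, 6.69 to 12.8 CPM in HP1a KO Tconv with Treg and an interaction of -2.71 ± 0.46 (adjusted p = 0.0562 by edgeR and 4.12e-06 by DESeq2). Ccdc28b (-1.80 ± 0.31) had an adjusted p of 0.0562 by edgeR and 1.95e-05 by DESeq2. Named after their values were seen, E130308A19Rik was called at -1.36 (adjusted p = 0.0399), and Gprc5a was called with 1.33 to 2.32 CPM in HP1a WT Tconv with Treg and 0, 0 and 0.018 CPM in HP1a KO Tconv with Treg. Gprc5a was the only one of the 24 called genes whose Treg effects had opposite signs in the genotypes.

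**Figure D3:**
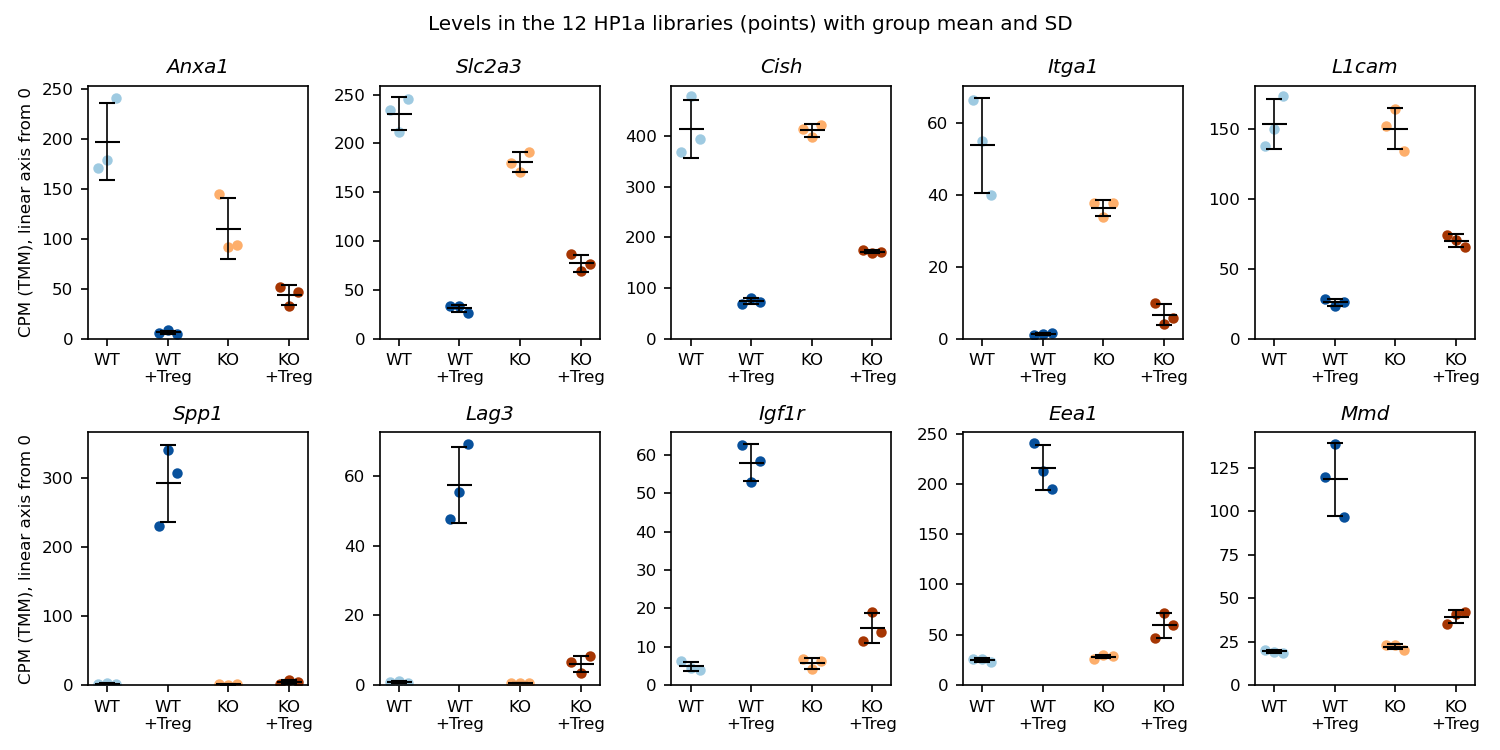
Level in CPM (linear axis from 0) of 10 called genes in each of the 12 libraries, 1 point per library, with the mean and SD of each group. Anxa1, Slc2a3, Cish, Itga1 and L1cam were lower with Treg and less so in KO, and Spp1, Lag3, Igf1r, Eea1 and Mmd were highest in HP1a WT Tconv with Treg.

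Promoters are printed for Anxa1, Adgrg3 and Tafa3, at the positive end of the interaction under the naming rule, and for Lag3, Slc15a2 and Spp1, at its negative end, because these genes carry the widest genotype differences in the Treg response. Each spans 250 bases before and 50 bases from the start of the Ensembl-canonical transcript in the GENCODE annotation of GRCm39, 5′ to 3′ on the strand of the gene. The positions are chr19:20368325-20368624 (minus strand) for Anxa1, chr8:95744070-95744369 (plus strand) for Adgrg3, chr3:104684814-104685113 (minus strand) for Tafa3, chr6:124888619-124888918 (minus strand) for Lag3, chr16:36605282-36605581 (minus strand) for Slc15a2 and chr5:104581915-104582214 (plus strand) for Spp1. Motifs of AP-1 (TGANTCA), NFAT (TGGAAA), an E box (CACGTG) and TCF and LEF factors (CTTTGA) were searched on both strands, and capitals mark a match.
Anxa1: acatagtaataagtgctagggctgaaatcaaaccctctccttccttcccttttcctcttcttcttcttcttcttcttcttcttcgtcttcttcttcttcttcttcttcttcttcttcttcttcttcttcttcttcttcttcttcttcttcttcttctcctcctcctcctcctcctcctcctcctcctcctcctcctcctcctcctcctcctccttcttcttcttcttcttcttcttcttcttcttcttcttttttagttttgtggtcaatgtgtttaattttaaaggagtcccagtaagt
Adgrg3: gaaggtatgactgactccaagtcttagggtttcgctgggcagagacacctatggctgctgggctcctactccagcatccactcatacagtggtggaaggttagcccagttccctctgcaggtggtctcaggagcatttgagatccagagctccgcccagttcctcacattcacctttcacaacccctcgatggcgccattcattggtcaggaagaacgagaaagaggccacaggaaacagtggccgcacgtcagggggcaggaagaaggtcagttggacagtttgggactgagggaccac
Tafa3: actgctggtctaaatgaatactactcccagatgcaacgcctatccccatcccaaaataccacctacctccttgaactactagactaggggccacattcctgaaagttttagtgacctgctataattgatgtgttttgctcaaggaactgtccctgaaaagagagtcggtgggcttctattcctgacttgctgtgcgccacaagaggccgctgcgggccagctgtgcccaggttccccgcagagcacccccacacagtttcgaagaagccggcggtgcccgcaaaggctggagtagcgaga
Lag3: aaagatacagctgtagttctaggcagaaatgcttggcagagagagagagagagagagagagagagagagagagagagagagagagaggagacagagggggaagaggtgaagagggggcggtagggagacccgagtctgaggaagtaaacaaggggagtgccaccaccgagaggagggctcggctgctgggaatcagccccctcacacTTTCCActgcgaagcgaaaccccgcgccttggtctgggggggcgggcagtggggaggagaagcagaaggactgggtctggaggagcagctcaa
Slc15a2: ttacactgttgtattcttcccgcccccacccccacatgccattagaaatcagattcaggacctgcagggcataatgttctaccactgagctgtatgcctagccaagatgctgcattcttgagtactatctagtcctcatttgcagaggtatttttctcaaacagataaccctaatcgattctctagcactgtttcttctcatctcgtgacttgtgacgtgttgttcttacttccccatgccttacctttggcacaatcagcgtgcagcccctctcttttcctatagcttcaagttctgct
Spp1: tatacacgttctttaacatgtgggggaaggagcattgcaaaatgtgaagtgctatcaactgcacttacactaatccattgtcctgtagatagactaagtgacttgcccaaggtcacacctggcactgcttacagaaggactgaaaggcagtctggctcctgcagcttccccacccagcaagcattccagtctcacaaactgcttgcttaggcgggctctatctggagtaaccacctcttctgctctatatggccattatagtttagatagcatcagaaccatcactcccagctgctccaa
The single match was the NFAT letters in Lag3, on the opposite strand and starting 43 bases before the transcript start. These letters occur in 21.8% of 21770 promoters of the same length, AP-1 letters in 7.14%, the E box in 7.81% and the TCF and LEF letters in 16.2%. A match is a description of these letters and not a site of binding.

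Described by pathway, few inhibitory receptor, helper T cell and cytokine genes passed the test for the interaction. Lists were set by hand with earlier results of these data known, and are described by counts and medians. Of the 15 inhibitory receptor genes, Lag3 was called and 11 lay below 0, with a median interaction of -0.91 against -0.018 over all genes, and 2 higher and 6 lower members had an unadjusted p under 0.05 (5.18% and 4.55% of all genes). DESeq2 called 1 higher and 4 lower members. The median Treg effect of these 15 was 1.32 in WT and 0.17 in KO. Pdcd1, encoding PD-1, was at 555, 476 and 272 CPM in HP1a WT Tconv with Treg and 113, 148 and 100 CPM in HP1a KO Tconv with Treg, against 29.2 to 55.2 CPM without Treg. Pdcd1 rose in both genotypes, and its interaction of -1.38 ± 0.35 missed the threshold by edgeR (adjusted p = 0.165) and passed it by DESeq2 (adjusted p = 0.0135). Ctla4 (-1.61) likewise had an adjusted p of 0.0886 by edgeR and 0.000742 by DESeq2. Tigit (-1.37) passed by neither, with an adjusted p of 0.246 by edgeR and 0.0572 by DESeq2. For Ctla4 every HP1a WT Tconv with Treg library (299 to 381 CPM) lay above every HP1a KO Tconv with Treg library (103 to 170 CPM). Among 19 receptor signalling and exhaustion transcription factors none was called by edgeR, 7 had an unadjusted p under 0.05 and DESeq2 called 3, with a median of -0.86. Tox, a transcription factor of chronically stimulated T cells, was at 365 to 661 CPM in HP1a WT Tconv with Treg and 111 to 162 CPM in HP1a KO Tconv with Treg, with an interaction of -1.96 (adjusted p = 0.122 by edgeR and 0.002 by DESeq2). Batf gave -0.96 (adjusted p = 0.0635) and Eomes -2.25 (adjusted p = 0.231) by edgeR. Eomes passed by DESeq2 (adjusted p = 0.025). Batf had a DESeq2 adjusted p of 0.000121 but missed the log2 threshold at -0.98.

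Th1 genes lay on the other side. Of 20 Th1 core genes none was called by edgeR and 4 by DESeq2, all higher, while 9 had an unadjusted p under 0.05, all with a positive value. Their median interaction was 0.38, and their median Treg effect was -0.95 in WT and -0.42 in KO. By edgeR, the interferon gamma receptor gene Ifngr1 gave 1.47 (adjusted p = 0.203) and the chemokine receptor gene Cxcr6 1.63 (adjusted p = 0.21). The interleukin-18 receptor gene Il18r1 gave 1.28 (adjusted p = 0.211). Each of them passed by DESeq2, with an adjusted p of 0.0265, 0.0253 and 0.0389 in that order. The 2 defining Th1 genes were uneven between replicates. Ifng was at 319, 305 and 581 CPM in HP1a WT Tconv with Treg and 350, 106.8 and 255 CPM in HP1a KO Tconv with Treg, and Tbx21 at 93.6, 65.8 and 52.0 CPM against 190, 51.9 and 145 CPM. The groups overlapped for both, with interactions of -0.082 (adjusted p = 0.973) and 1.24 (adjusted p = 0.456). Of 16 Th17 genes none was called by edgeR, 2 had an unadjusted p under 0.05 and DESeq2 called 1, with a median of 0.031.

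All 15 follicular helper T cell genes tested had a negative interaction, with a median of -1.05 and a median Treg effect of 2.56 in WT and 1.52 in KO. None was called by edgeR, 6 had an unadjusted p under 0.05 and DESeq2 called 2. Sostdc1 (-2.81, adjusted p = 0.267), Pou2af1 (-2.32, adjusted p = 0.273) and Tnfsf8 (-1.76, adjusted p = 0.128) are examples by edgeR. Pou2af1 (adjusted p = 0.0395) and Tnfsf8 (adjusted p = 0.0033) were those that passed by DESeq2. The 15 genes of the regulatory T cell programme had a median of -1.27, with a median Treg effect of 1.15 in WT and -0.29 in KO. None was called by edgeR, 6 had an unadjusted p under 0.05, all negative, and DESeq2 called 4. Foxp3 was at 13.7, 69.8 and 18.5 CPM in HP1a WT Tconv with Treg and 8.65, 35.2 and 16.5 CPM in HP1a KO Tconv with Treg, so that the groups overlapped.

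Among 34 cytokine and chemokine ligand genes Spp1 was called, 5 higher and 8 lower members had an unadjusted p under 0.05, and the median was -0.83, while DESeq2 called 1 higher and 5 lower members. Il2, the T cell growth factor, gave 1.38. It missed the threshold by edgeR (adjusted p = 0.235) and passed it by DESeq2 (adjusted p = 0.048). Il2 was at 16.7, 21.7 and 13.1 CPM in HP1a KO Tconv with Treg and 5.46, 9.0 and 5.11 CPM in HP1a WT Tconv with Treg. The suppressive cytokine gene Il10 gave -2.47 (adjusted p = 0.517 by edgeR), Csf2 0.59 (adjusted p = 0.779) and Il17a -2.10 (adjusted p = 0.725). None of Il10, Csf2 and Il17a passed by DESeq2. The chemokine genes Ccl3 and Ccl4, named after their values were seen, gave -4.73 (adjusted p = 0.078) and -4.42 (adjusted p = 0.111). Ccl3 was at 290, 262 and 1086 CPM in HP1a WT Tconv with Treg and 32.6, 11.9 and 34.0 CPM in HP1a KO Tconv with Treg, with no overlap. Among 39 cytokine receptor and SOCS feedback genes, Cish was called, and 11 higher members against 1 lower had an unadjusted p under 0.05, and DESeq2 called 4, all higher. Il7r, whose product sustains naive and memory T cells, gave 1.63 (adjusted p = 0.225 by edgeR and 0.0336 by DESeq2, which called it). Of 17 integrin genes Itga1 was called (median 0.40), and of 20 glycolysis genes Slc2a3 was called (median -0.0078), and DESeq2 called 3 and 1, all higher.

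The remaining lists had no call by edgeR. The numbers of members with an unadjusted p under 0.05 were 5 of 13 anergy genes, 7 of 15 cytotoxic granule genes, 8 of 23 naive and memory genes, 5 of 20 chemokine receptors, 9 of 18 costimulatory receptors, 6 of 30 type I interferon-stimulated genes, 4 of 33 DNA replication genes, 2 of 34 mitosis genes, 1 of 26 heterochromatin genes and 2 of 16 BCL2 family genes. Over all genes tested this share was 9.74%, and it was 12.1% of the DNA replication, 12.5% of the BCL2 family, 5.88% of the mitosis and 3.85% of the heterochromatin genes, close to or below that of all genes. DESeq2 called 1, 2, 1, 3, 3, 3, 0, 0, 0 and 1 members in the order of the lists. The mitosis list had a median of -0.46 and all 34 members below 0, with Kif15 at -1.44 (adjusted p = 0.28). Over all genes tested, 8863 of 17205 lay below 0. The direction was not particular to the HP1a line. In the HP1g line (joint fit described below) the mitosis median was -0.76, and the DNA replication median was -0.34 against -0.29 in the HP1a line. Single members close to the edgeR threshold, all of which passed by DESeq2, were the costimulatory receptor gene Cd226 (1.53, adjusted p = 0.0562), the chemokine receptor gene Cxcr4 (-1.66, adjusted p = 0.0616) and the interferon-induced gene Ifitm3 (2.20, adjusted p = 0.0705). In the Th1 and exhaustion lists that the study curated by hand, 1 of 72 Th1 genes was called, Anxa1, and 3 of 97 exhaustion genes, among them Lag3 and Spp1. DESeq2 called 9 higher and 2 lower Th1 genes, and 0 higher and 16 lower exhaustion genes. The medians of the lists were 0.18 and -0.59, and 4 exhaustion genes with a positive and 34 with a negative value had an unadjusted p under 0.05.

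**Figure D4:**
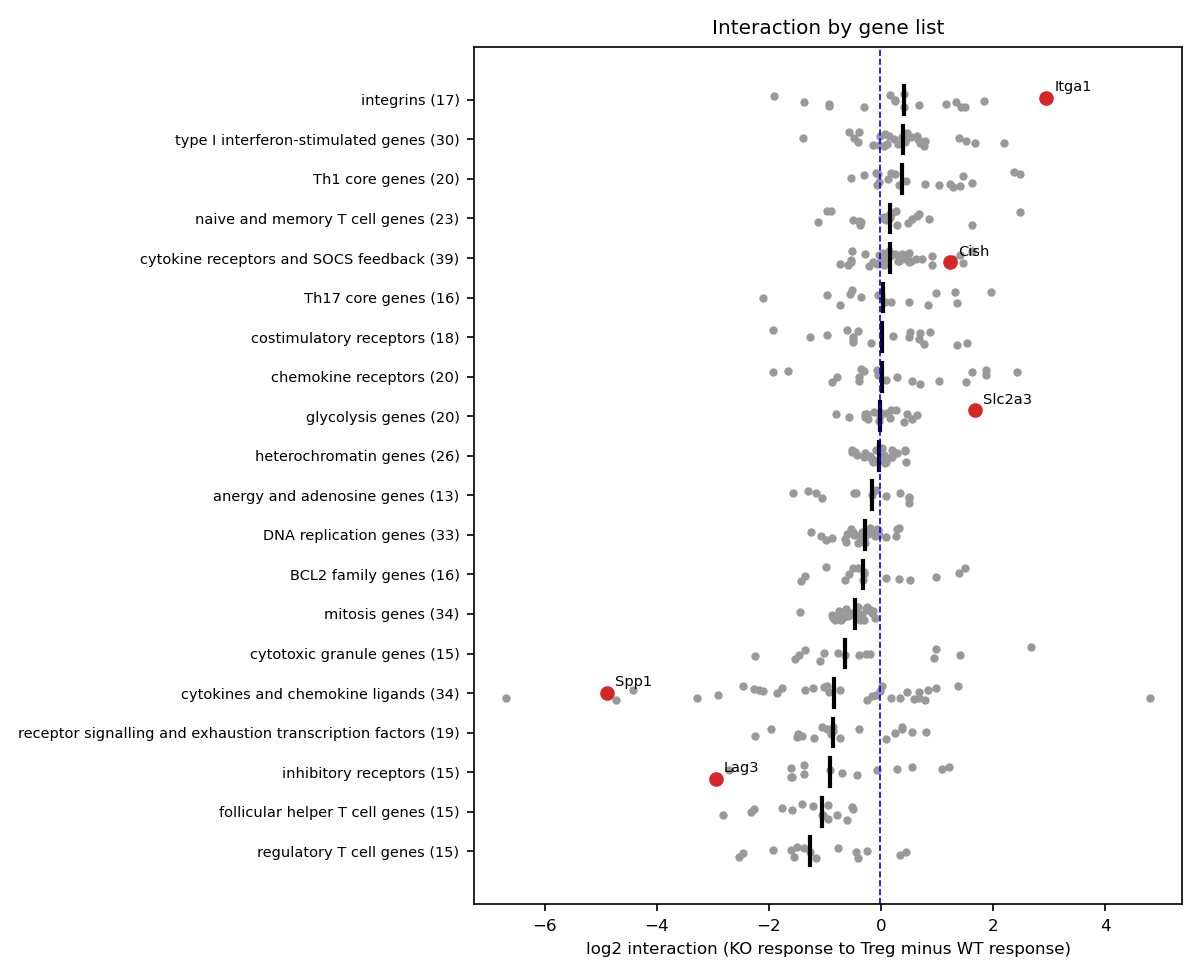
Log2 interaction (x axis) of the tested members of each list, 1 point per gene, with called genes in red, the median of the list as a bar and the median of all genes tested (-0.018) as a dashed line. The inhibitory receptor (-0.91), follicular helper (-1.05) and regulatory T cell (-1.27) medians lie below that of all genes and the Th1 core median (0.38) above it.

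Lists of other cell types also lay below 0, with a median interaction of -2.28 for 14 macrophage and monocyte markers, -2.63 for 11 neutrophil markers, -1.50 for 10 dendritic cell markers, -1.34 for 10 erythroid markers, -1.42 for 9 B cell markers, -0.90 for 5 plasma cell markers and -0.90 for 2 megakaryocyte markers. None of these genes was called by edgeR, 1 macrophage and 3 dendritic cell markers had an unadjusted p under 0.05, and DESeq2 called 1 macrophage marker. The 6 CD8 T and NK cell markers tested had a median of -1.70 with all 6 below 0, none called by edgeR or DESeq2 and 1 at an unadjusted p under 0.05, and their summed level was 46.6 to 122 CPM in HP1a WT Tconv with Treg and 19.1 to 146 CPM in HP1a KO Tconv with Treg. The part of these transcripts in the result was not tested. Leaving out the 3 libraries rich in macrophage and erythroid transcripts leaves HP1a KO Tconv with 2 libraries and HP1a KO Tconv with Treg with 1, R2. This library had the lowest Trbv19 share (47.1%) and the highest B cell marker sum (65.0 CPM) of the 12. Its neutrophil marker sum was 275 CPM, against 72.3 CPM in the left-out HP1a KO Tconv R3. Neutrophil transcripts were therefore not removed from this arm. The spread of this arm then comes from the other groups, and the lone library is assumed to vary as they do. In these 9 libraries edgeR called 0 genes for the interaction, with 936 at an unadjusted p under 0.05, while DESeq2 called 131 and limma-voom 4. The 24 genes called in 12 libraries had the same sign in this fit, with an unadjusted p under 0.05 for each, and DESeq2 called 23 of them. These genes had been chosen by their interaction, so this is a description and no independent check. For the Treg effect in KO, 1 library against 2, edgeR called 0 genes (1199 at an unadjusted p under 0.05), DESeq2 300 and limma-voom 118.

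The HP1g line gave a second interaction with its own controls. There the floxed Hp1g allele, which encodes HP1g (Cbx3), was excised with Cd4-cre in T cells. Littermate WT and KO Tconv were transferred with and without WT Treg. The labels give no ratio of Tconv to Treg for either line, so equal ratios cannot be assumed. The paper states that Treg did not effectively suppress the WT response at the ratio of the HP1g experiment. HP1g KO Tconv with Treg R3 was left out, as the study did for its quality. This left 11 libraries of the HP1g line. In a joint fit of 23 libraries and 19141 genes, edgeR called 0 genes for the interaction in the HP1g line (554 at an unadjusted p under 0.05, 9 (0.0561%) called by DESeq2 and 0 by limma-voom). The difference between the lines was called for 14 genes (0.0731%), 7 higher (0.0366%) and 7 lower (0.0366%) in the HP1a line, with 2010 genes at an unadjusted p under 0.05. DESeq2 called 339 (1.81%) and limma-voom 125 (0.653%). Each of the 24 genes called in the HP1a line had an interaction of the opposite sign in the HP1g line. None of these HP1g interactions was called by edgeR, where the lowest adjusted p of any gene was 0.9999. Some lay within 1 SE of 0, such as Igf1r (0.19 ± 0.49) and Lag3 (0.55 ± 0.90). Others did not, such as Anxa1 (-1.62 ± 0.61). How often the signs were opposite over all genes was not counted.

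Of the 14 genes, 5 were also called for the interaction in the HP1a line, among them Anxa1, Slc2a3, Pex11a and Gprc5a. Anxa1 differed by 5.31 ± 0.85 (adjusted p = 0.0284), from an interaction of 3.69 in the HP1a line and -1.62 in the HP1g line. Slc2a3 differed by 2.48 ± 0.39 (adjusted p = 0.0284) and Pex11a by -3.94 ± 0.69 (adjusted p = 0.0376). Hdac7, encoding a class IIa histone deacetylase of T cells and named after its values were seen, differed by -1.65 ± 0.24 (adjusted p = 0.0284). It was at 156 to 177 CPM in HP1a WT Tconv with Treg and 91.3 to 107.3 CPM in HP1a KO Tconv with Treg, but at 68.4 to 80.7 CPM in HP1g WT Tconv with Treg and 116 and 161 CPM in the 2 HP1g KO Tconv with Treg libraries. The order of the genotypes with Treg was thus opposite in the lines. Also called were Edaradd (4.27), Epsti1 (2.40), Lratd2 (1.74), Tiam2 (-5.71), Slc9b2 (-4.27), Gnaq (-3.17), Ly6a2 and Gm15408, all named after their values were seen. Lag3 (-3.49, adjusted p = 0.304) and Spp1 (-6.08, adjusted p = 0.262) did not pass this test.

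The WT cells of the lines did not have the same Treg effect. Over the genes called in HP1a WT, the median effect of those that were higher was 2.39 in HP1a WT, 0.85 in HP1a KO, 0.36 in HP1g WT and 1 in HP1g KO, and of those that were lower -1.91, -0.60, -0.25 and -0.69. The HP1a WT value is favoured by this choice of genes. A test of the difference between the WT Treg effects, added after the values were seen, called 338 genes (1.77%), 138 higher (0.721%) and 200 lower (1.04%) in HP1a WT (789 by DESeq2, 4.36%), and the same test in KO called 0 genes, with 815 at an unadjusted p under 0.05 and 16 (0.0769%) called by DESeq2. For the Treg effect itself edgeR called 0 genes in HP1g WT (660 at an unadjusted p under 0.05, 11 by DESeq2, 0.0388%) and 0 in HP1g KO (1894 at an unadjusted p under 0.05, 229 by DESeq2, 1.49%). Whether the lines were transferred together is not given in the labels, so line and experiment cannot be told apart.

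**Figure D5:**
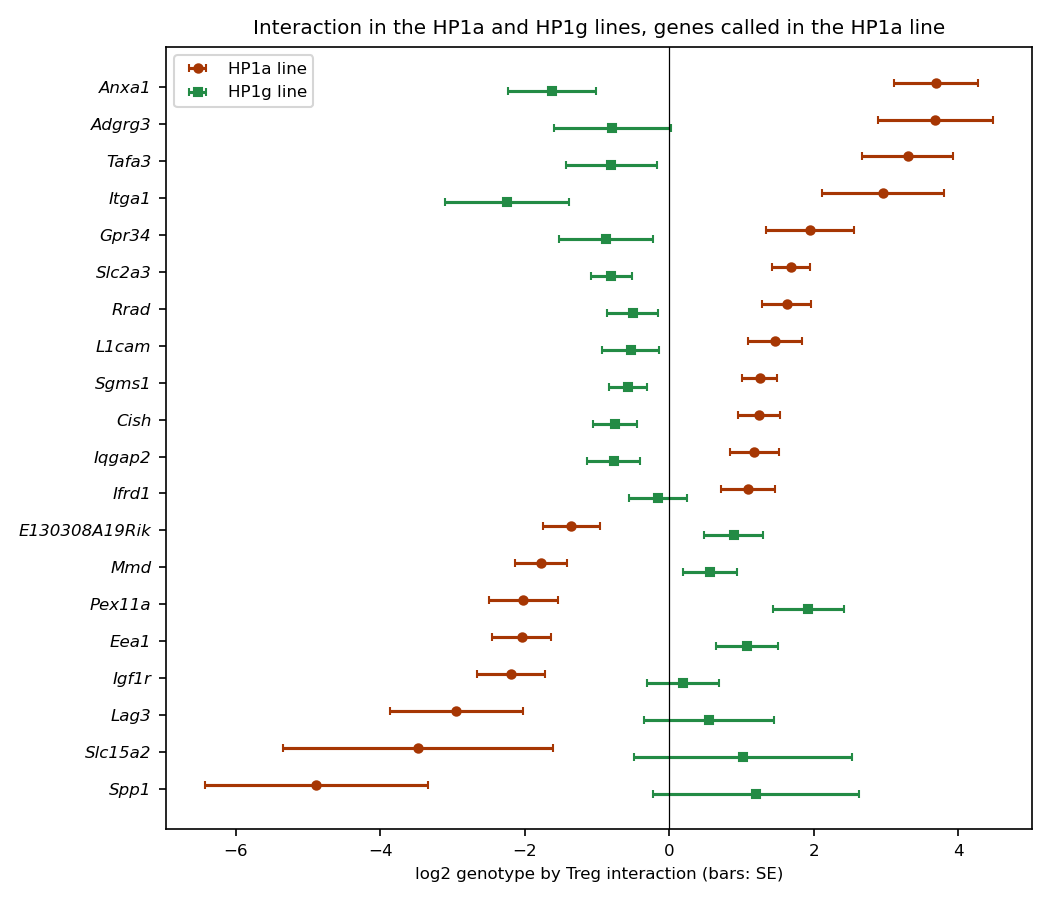
Log2 genotype by Treg interaction (x axis, bars are SE) in the HP1a and HP1g lines from the joint fit of 23 libraries, for 20 genes called in the HP1a line. The points of the lines lie on opposite sides of 0 for each gene, as for Anxa1 at 3.69 and -1.62. The share of all genes with opposite signs was not counted. No interaction of the HP1g line was called by edgeR.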

How the data were processed

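RNA-seq was performed on Tconv sorted from hosts with or without Treg. Per gene, the authors deposited estimated counts that had not been normalised. According to the submitters' processing notes, STAR, Salmon and the build GRCm39 were used. Salmon shares ambiguous reads out between genes, so that only 82.9% of the values were whole, and counts of genes with close paralogs or pseudogenes are less certain. Columns were matched to samples by name, and 0 columns were unused. The 12 HP1a libraries of Tconv and Tconv with Treg held 37029500 to 62700100 counts, and 17205 of 56748 genes passed filterByExpr.

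Estimated counts were rounded to whole numbers and fitted with edgeR's quasi-likelihood test (edgeR 4.0.16, R 4.3.3, robust estimation, TMM normalisation, 1 coefficient per group). P-values were adjusted by the Benjamini-Hochberg method across all genes tested, and a call required an adjusted p under 0.05 and an absolute log2 value above 1. Errors of log2 values are standard errors (SE), worked back from the log2 value and the F statistic of its test. Each group had 3 libraries, except HP1g KO Tconv with Treg, which had 2. The comparison with the HP1g line used a joint fit of 23 libraries. DESeq2 1.42.0, which the authors used for this kind of comparison, and limma-voom with sample quality weights (limma 3.58.1) were alternatives, with RLE size factors, other filters, no log2 threshold, all 18 libraries of the line, a replicate block and each library left out in turn. Scripts were tested on simulated data.

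Genes were named as follows. Cbx5, Cbx1 and Cbx3 were named in any case. The 10 highest and 10 lowest log2 values were then taken among called genes averaging 5 CPM or more, filled with the uncalled genes of lowest p where fewer were called. RIKEN clones, predicted genes, pseudogenes and receptor segments were left out, and members of the lists with the lowest p and a set of checkpoint and cytokine genes were added. Some called genes are not reported here. The rule, the lists and the tests were chosen with earlier results of these data known. Promoters were read from the GRCm39 genome at GENCODE transcript starts, because the RefSeq promoter table at hand is of another build.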

Additional observations from a re-analysis of the deposited data

Results flagged for a closer look

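The interaction of genotype and Treg differed between the HP1a and HP1g lines for 14 genes by a test of the difference itself (edgeR's quasi-likelihood test, joint fit of 23 libraries). Of the genes called in the HP1a line, 5 were among them. The log2 difference of the interactions was 5.31 for Anxa1, 2.48 for Slc2a3, -3.94 for Pex11a and -11.50 for Gprc5a. HP1a KO Tconv with Treg was at or near 0 for Gprc5a, so the last value depends on the prior count of the fit and is no measure of size. The HP1g side rests on 2 HP1g KO Tconv with Treg libraries, which differed from each other (Lag3 58.3 and 21.2 CPM, Spp1 614 and 119 CPM). With HP1g KO Tconv with Treg R3 put back edgeR called 0 genes.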

How the results depend on the processing

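The count of genes called for the interaction depended on the tool and on single libraries, whereas the direction of the named genes did not, apart from those listed here. The 24 interaction calls became 356 with DESeq2, 121 with limma-voom, 65 without a filter, 44 with at least 5 CPM, 124 with all 18 libraries of the line and 0 without the 3 libraries rich in macrophage and erythroid transcripts, which leaves 1 HP1a KO Tconv with Treg library. With 1 library left out they ranged from 9 (without HP1a WT Tconv R3) to 91 (without HP1a WT Tconv with Treg R3). They were 13 and 15 without HP1a WT Tconv R1 and R2, 11 and 10 without HP1a KO Tconv R2 and R3, 80 without HP1a WT Tconv with Treg R2, and 14, 50 and 15 without HP1a KO Tconv with Treg R1, R2 and R3. The 1303 WT calls became 2036 with DESeq2, 792 with at least 5 CPM and 2317 without a log2 threshold, and ranged from 775 (without HP1a WT Tconv R3, with 855 without R1) to 1653 (without HP1a WT Tconv with Treg R2). The 47 KO calls became 331 with DESeq2, 310 with limma-voom, 74 without a filter, 106 with 18 libraries and 0 without the 3 rich libraries, and ranged from 8 (without HP1a KO Tconv R3) to 150 (without HP1a WT Tconv with Treg R3), with 24 and 11 without HP1a KO Tconv R1 and R2 and 24 and 15 without HP1a KO Tconv with Treg R2 and R3. The 14 calls between the lines became 339 with DESeq2, 125 with limma-voom, 32 without a filter and 0 with HP1g KO Tconv with Treg R3 put back, and ranged from 0 (without HP1a WT Tconv R1 or R3, or HP1a KO Tconv R3) to 45 (without HP1a WT Tconv with Treg R3), with 7 and 8 without HP1a WT Tconv R2 and HP1a KO Tconv R2, 30 without HP1a WT Tconv with Treg R2, and 1, 43 and 4 without HP1a KO Tconv with Treg R1, R2 and R3. The cause was not tested.

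With the replicate number as a block the calls were 19 for the interaction, 1211 in WT, 51 in KO and 22 between the lines. The numbers were not taken to pair the libraries, since 8 of 18 correlations between same-numbered libraries were above 0.1 and 5 of 12 libraries correlated best with their own number. The sign of the interaction reversed for 4 named genes, none of them called. Cbx3 was at 0.047 without the 3 rich libraries, and ranged from -0.27 to 0.041 (without HP1a WT Tconv with Treg R3) with 1 library left out. Ifng was at 0.19 with limma-voom and ranged from -0.47 to 0.29 with 1 library left out, above 0 without HP1a WT Tconv R2, HP1a WT Tconv with Treg R3 or HP1a KO Tconv with Treg R2. Over all 19 alternatives its lowest value was -1.24. Il17a was at 1.63 with limma-voom and ranged from -2.72 to 0.74 (without HP1a KO Tconv R1), and Tbx21 was at -0.067 without the 3 rich libraries. Of the other values of named genes under alternatives, 1243 kept direction and side of the threshold, 141 kept the direction but no longer passed it and 70 newly passed it.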
